A study of Mus musculus with 3 samples.

Results

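Of the 3608 regions that the authors called on the Stringent array, 248 lay upstream of the mouse olfactory receptor promoter nearest to them. A region was counted when it contained none of the 1085 promoter positions named by the authors and its middle lay over 100 and up to 10000 bp from the nearest one, on the upstream side by the strand given for that promoter. The members were thus chosen by the positions of Stringent calls, so their number and distances are a description with no test. Of the other Stringent regions, 2228 lay over 100 and up to 10000 bp downstream of their nearest promoter and 629 spanned a named position. A further 480 were over 10000 bp away or on a chromosome with no named promoter, and 23 had their middle within 100 bp of a position without containing it.

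The 3 arrays read 5′ ends of receptor transcripts from the olfactory epithelium of adult mice (strain C57/Bl6, 6 to 8 weeks old), with the tissue of 5 mice pooled in each sample. The Stringent array (1 array) was hybridised with a nested PCR product, and the 2 High Coverage arrays with products of PCR without nesting. The headers of the files call the first High Coverage input female and the second male, so that array and sex cannot be told apart. Stringent has no replicate and the number of arrays limits the precision, so no test between arrays was run. All intervals below are 95% intervals that cover counting error over regions only, and regions of 1 array are not replicates.

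Olfactory receptor genes stand close together in clusters, often with many neighbours in tandem on the same strand. A typical receptor gene has 1 or more short noncoding 5′ exons, then an intron, and then a single exon that holds the whole coding sequence. In RLM-RACE an RNA oligonucleotide is ligated to decapped mRNA, and here the cDNA was primed with degenerate primers against receptor coding sequences. The amplified product therefore runs from the capped 5′ end to the primer, and hybridises to the exons in between. A region upstream of one promoter can thus be examined as exon sequence of the transcript from the neighbouring promoter behind it, or as a start lying further 5′ than the named one. The region lists carry no strand, so strand comes from the promoters alone.

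The 248 regions were classed by the promoter behind, meaning the first named promoter on the far side of the region from its nearest one. With a same-strand promoter behind, the region lies downstream of that promoter, and with an opposite-strand promoter behind, it lies upstream of both. A same-strand promoter stood behind 74 regions within 10000 bp, or 29.8% (exact Clopper-Pearson interval 24.2 to 36.0). Of the scored probes in the same upstream zone, 23.6% had that arrangement. An opposite-strand promoter stood behind 17 regions within that limit, or 6.85%, against 6.04% of the probes. The other 157 regions, or 63.3%, had no named promoter behind within 10000 bp. For 111 of these the promoter behind was on the same strand, in 46 cases at no more than 20000 bp, and for the other 46 regions it was on the opposite strand. The share with a same-strand promoter behind therefore depends on the limit, and was 7.66% at 5000 bp and 48.4% at 20000 bp. The probe share of 23.6% belongs to 10000 bp and is not given for these other limits.

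The 248 regions belonged to 165 promoters, of which 112 had 1 region, 36 had 2 and 17 had 3 or more. Many regions were neighbours. At gaps of no more than 100 bp they formed 206 blocks, and 81 of them lay that close to another Stringent region. Counted once per block, the share with a same-strand promoter behind was 30.6% (24.4 to 37.4). By chromosome, 55 regions lay on chromosome 7, 46 on chromosome 2, 31 on chromosome 11, 29 on chromosome 19, 27 on chromosome 17 and 23 on chromosome 9. Chromosome 17 had the most for its size, with 64.3 regions per 100 named promoters, against 15.9 on chromosome 2. Unannotated pseudogenes were the nearest promoter of 21 of the 248 regions, and 51 of the 1085 named promoters were of this kind.

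Counted per scored probe, upstream regions were sparse close to the promoter and denser farther away. On Stringent there were 0.110 regions per 1000 scored probes at 100 to 1000 bp upstream (11 regions), against 2.84 at the same distance downstream (422 regions). The upstream density was 0.449 at 1000 to 3000 bp, 1.08 at 3000 to 7000 bp and 2.12 at 7000 to 10000 bp. The downstream density over the same bins was 2.67, 2.17 and 0.863. The order of upstream and downstream thus turned beyond 7000 bp on Stringent, where 62 upstream regions were counted. At that distance High Coverage 1 had 2.97 upstream and 3.62 downstream, with no such turn, and High Coverage 2 had 3.01 and 2.68. Over the whole range the upstream density was 0.693 and the downstream density 2.30, a downstream over upstream ratio of 3.31 (2.90 to 3.79). It is not known whether the named positions were set from the Stringent signal. If they were, a low density just upstream would follow from that choice. The low density near promoters and this ratio are therefore a description only. On the High Coverage arrays the upstream density close to the promoter stood nearer to the downstream one. At 100 to 1000 bp, High Coverage 1 had 2.42 regions per 1000 probes upstream and 4.23 downstream, and High Coverage 2 had 1.97 upstream and 4.22 downstream. The whole-range ratios of downstream over upstream were 1.54 (1.44 to 1.66) and 1.63 (1.51 to 1.76). The lists were called at different score thresholds, so the difference in these ratios between arrays was not tested. Probe spacing was not even, so these are not densities per bp. The median probe spacing was 5 bp, but sparser tiling was common among the upstream regions beyond 7000 bp. The region at 8457 bp from Olfr23 held 25 scored probes in 532 bp. Those at 7905.5 bp from Olfr773 and 8209.5 bp from Olfr798 held 24 in 499 bp and 21 in 413 bp. Some there were denser, such as that at 8264 bp from Olfr355, with 39 in 198 bp. Another was that at 7058 bp from Olfr1381, with 45 in 284 bp. Close to promoters, the region at 197 bp from Olfr399 held 35 in 172 bp. That at 470.5 bp from Olfr1509 held 13 in 269 bp. The same regions give a higher density per probe where probes are sparser. How far the rise with distance, and the turn beyond 7000 bp, go with spacing was not tested.

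**Figure D1:**
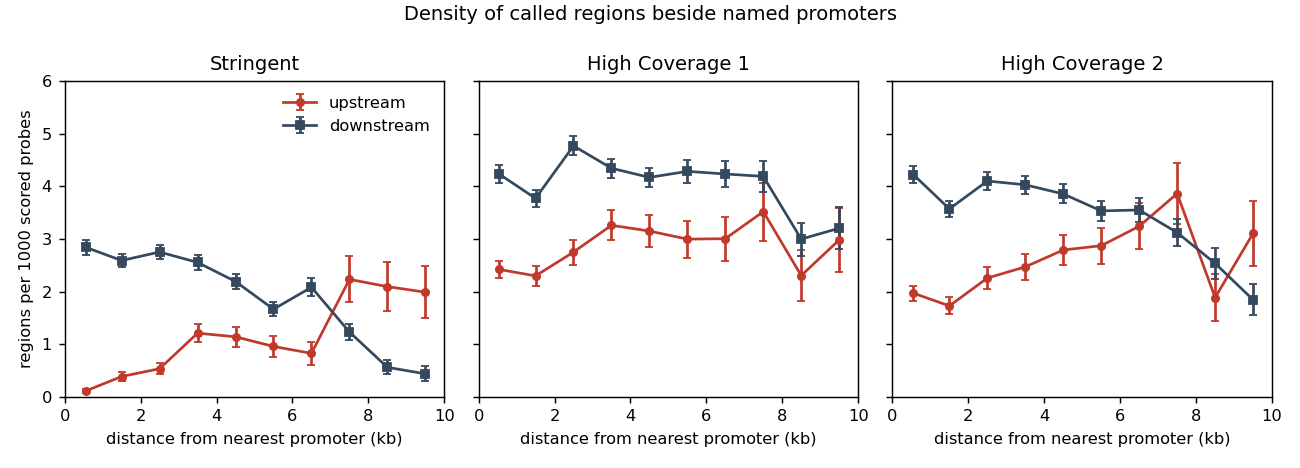
Called regions per 1000 scored probes, in bins of 1000 bp by distance from the nearest named promoter (kb), upstream (circles) and downstream (squares), for each array. Bars are the square root of the region count and cover counting error only. On Stringent the upstream curve starts near 0, at 0.110 below 1000 bp, and passes above the downstream curve beyond 7000 bp.

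Only 11 regions lay under 1000 bp upstream of their promoter, and 7 of these under 500 bp. The nearest, at 123.5 bp, were a region of 61 bp at Olfr392 and one of 125 bp at Olfr1222. The Olfr392 region began 1 bp from the region that spans the Olfr392 promoter, and the Olfr1222 region 32 bp from the one that spans the Olfr1222 promoter. A region of 172 bp at Olfr399, 197 bp upstream, likewise lay 1 bp from the spanning region there. These were the 3 upstream regions that lay within 100 bp of a region over their own promoter, and no High Coverage region overlapped any of them.

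The other close regions lay over 100 bp from any region that spans their promoter. The Olfr539 region (mm9, chr7:147845710-147845966) was centred 386 bp upstream and was separated by 235 bp from the spanning region. Its highest MAT score, the authors' measure of how far a window of probes stands above what probe sequence predicts, was 8.25 on Stringent, with 7.94 and 12.3 on High Coverage 1 and 2. It was a single peak on all 3 arrays, and the score returned to below 0 between the peak and the promoter on Stringent. The region at Olfr1509 (chr14:53062615-53062884), a receptor of the cluster beside the H element enhancer, was centred 470.5 bp upstream. It scored 8.96 on Stringent, with 5.37 and 11.1 on High Coverage 1 and 2. No Stringent region lay within 100 bp of the Olfr1509 position itself. The regions at Olfr487, 407 bp upstream, and Olfr486, 410 bp upstream, were weaker on Stringent, with region scores of 2.82 and 4.22, and also had a region on both High Coverage arrays. At Olfr631, 2 adjoining regions 556 and 661.5 bp upstream scored 3.67 and 2.77 on Stringent and were overlapped on both High Coverage arrays. At Olfr-pseudo_unannotated_25 (618 bp) and Olfr832 (877 bp) neither array had an overlapping region. In all, 6 of the 11 close regions were overlapped on both High Coverage arrays and 5 on neither. Of all Stringent regions, 42.4% were overlapped on both.

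Just inside the upper limit were regions at 9909.5 bp from Olfr466 and 9738 bp from Olfr984, with region scores of 6.09 and 7.21. Just outside it were regions at 10074 bp from Olfr1049 and 10313 bp from Olfr1058, with scores of 10.2 and 2.94. Just outside the lower limit were regions of 33 bp at Olfr1251 and 30 bp at Olfr1222, centred 46.5 and 45 bp upstream.

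Pooled over all distances and counted per scored probe, regions with a same-strand promoter behind were denser than the rest on Stringent and High Coverage 1. Per 1000 scored probes, Stringent had 0.877 regions where a same-strand promoter stood behind within 10000 bp and 0.636 where none did, a ratio of 1.38 (1.04 to 1.82). High Coverage 1 had 3.41 and 2.50, a ratio of 1.36 (1.18 to 1.57). On High Coverage 2 the densities were 2.49 and 2.25, and the ratio of 1.11 had an interval that includes 1 (0.943 to 1.30). The mix of distances differed between these zones, and the order did not hold at every distance. On Stringent the densities with and without a same-strand promoter behind were 0.157 and 0.103 below 1000 bp, 0.430 and 0.455 at 1000 to 3000 bp, and 1.40 and 0.908 at 3000 to 7000 bp. At 7000 to 10000 bp they were 1.09, from 4 regions, and 2.27, from 58. Weighted over bins of 1000 bp, the ratio was 1.20 for the Stringent array, with 1.32 and 1.06 for High Coverage 1 and 2. No interval was computed for these weighted ratios. Probe spacing was not even, so a density per probe is not a density per bp, and its part in these ratios was not tested. The measure also matters. Counted as scored probes inside regions, Stringent had 54.7 per 1000 with a same-strand promoter behind and 12.6 without, a ratio of 4.34. For an opposite-strand promoter behind, set against none within the limit, the Stringent ratio of 1.26 rested on 17 regions and its interval of 0.717 to 2.09 also includes 1. High Coverage 1 had 1.67 regions per 1000 probes with an opposite-strand promoter behind and 2.57 with none, a ratio of 0.648 (0.450 to 0.906). On High Coverage 2 that ratio was 0.834 (0.592 to 1.15).

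**Figure D2:**
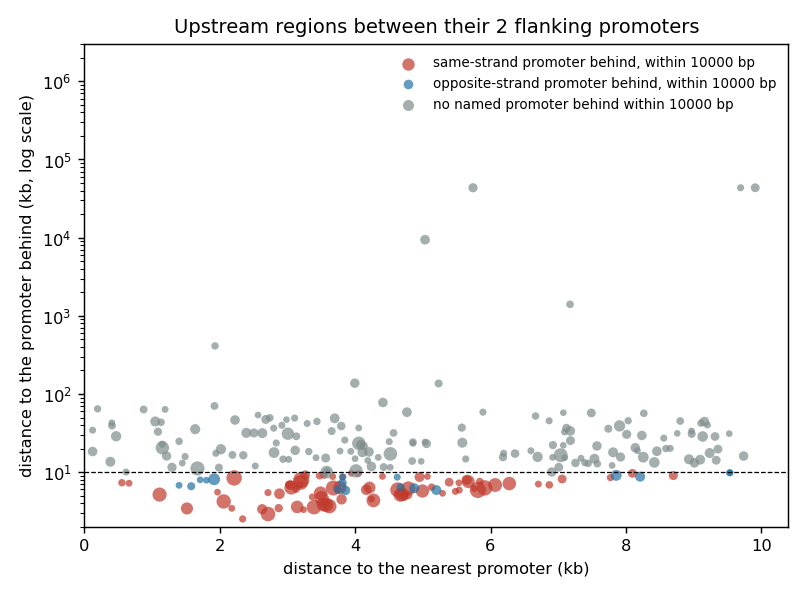
Distance of each of the 248 regions to the promoter behind it (kb, log scale) against the distance to its nearest promoter (kb), with larger points for higher Stringent region scores. The dashed line marks 10000 bp. The large points lie mostly below the line, among the 74 regions with a same-strand promoter behind, with a few above it.

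The classes also differed in the share of long regions, while the intervals of their median scores overlapped. Upstream regions with a same-strand promoter behind had a median score of 6.685 (interval 4.10 to 12.5) and a median length of 250.5 bp. Those with an opposite-strand promoter behind had medians of 4.72 (3.02 to 8.13) and 183 bp, and those with none within the limit had 4.52 (3.93 to 5.65) and 185 bp. A length of at least 500 bp was reached by 39 of the 248 upstream regions, or 15.7%, against 26% of all Stringent regions. Of these long regions, 27 had a same-strand promoter behind, which is 36.5% of that class (25.6 to 48.5). None of the 17 regions with an opposite-strand promoter behind was that long (0 to 19.5%), and 12 of the 157 with none within the limit were, or 7.64% (4.01 to 13.0). Downstream regions reached that length in 33.7% of cases (31.7 to 35.7), spanning regions in 18.1% and regions over 10000 bp away in 7.08%. By length, the class with a same-strand promoter behind thus resembled the downstream regions, and the class with none behind resembled the distant ones. The rule used positions and not length or score, but all of these values come from the same array.

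The strongest upstream regions nearly all had a same-strand promoter behind. This was so for all 15 with the highest scores and for 18 of the top 20, against 56 of the other 228. A score of at least 15 was reached by 32 of the 248 upstream regions, against 1056 of all 3608 Stringent regions. Of these 32, 26 had a same-strand promoter behind. Among the 65 that scored above the median of all Stringent regions, 34 did, or 52.3% (39.5 to 64.9).

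**Figure D3:**
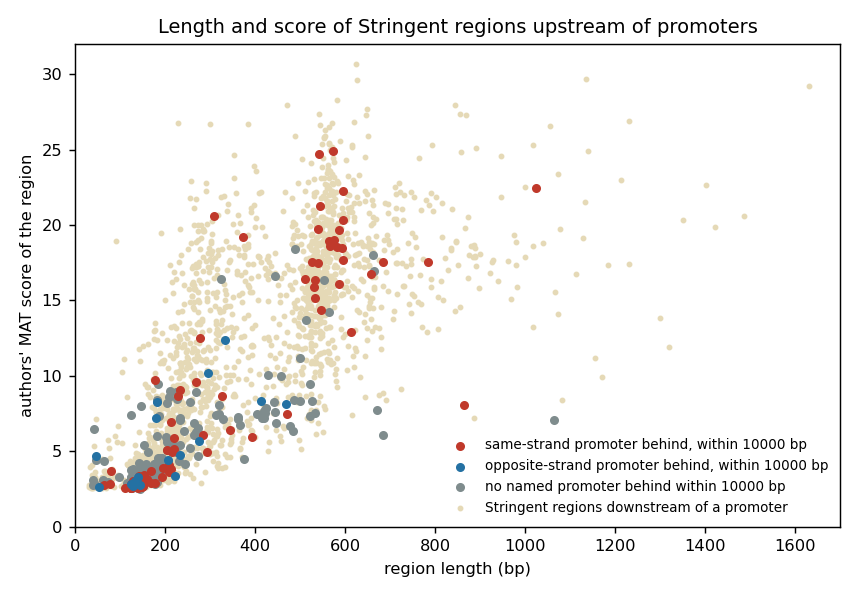
The authors' MAT score of each upstream Stringent region against its length (bp), coloured by the promoter behind, over the 2228 downstream regions (pale points). The regions with a same-strand promoter behind fall into a short, low-scoring group and a group near 500 to 650 bp with scores mostly above 14, which overlies a dense group of downstream regions.

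The highest score was at a region of 572 bp between Olfr1086 and Olfr1087 (chr2:86530646-86531218), 5813 bp upstream of Olfr1086 and 5925 bp downstream of Olfr1087. The highest MAT score inside it was 24.9 on Stringent, with 6.18 and 8.24 on High Coverage 1 and 2. The assignment to Olfr1086 as the nearest promoter rests on a difference of little over 100 bp. The next, between Olfr1179 and Olfr1180 (chr2:88252360-88252902), lay 3205 bp upstream of Olfr1179 and 7947 bp downstream of Olfr1180. It scored 24.7 on Stringent, with 26.2 and 26.9 on High Coverage 1 and 2, at the 99.98, 99.94 and 99.97 percentiles of the scored probes.

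The region between Olfr-pseudo_unannotated_25 and Olfr1348 (chr7:6454253-6455276) was 1023 bp long and scored 22.4 on Stringent, with 28.2 and 24.0 on High Coverage 1 and 2. Between Olfr1055 and Olfr1056 (chr2:86196075-86196671) a region of 596 bp scored 22.3 on Stringent, with 3.48 and 10.96 on High Coverage 1 and 2. These last values show that a region that is high on Stringent could be near the calling threshold on one High Coverage array. Between Olfr1043 and Olfr1044 (chr2:86011516-86012060) the values were 21.3, 13.2 and 23.0 in the same order.

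Olfr1221 had 3 upstream regions with Olfr1222 behind them on the same strand. The one nearest to Olfr1221 (chr2:88965414-88966008) scored 20.4 on Stringent, with 20.3 and 8.05 on High Coverage 1 and 2. The farthest (chr2:88966989-88967298) reached 20.6 on Stringent, against 1.29 and 2.19 on High Coverage 1 and 2. Neighbouring regions under the same promoter pair thus differed widely on the arrays without nesting. Between Olfr1014 and Olfr1013 (chr2:85609852-85610392) the highest scores were 19.7 on Stringent, with 2.33 and 21.1 on High Coverage 1 and 2, so this region was high on 2 of the 3 arrays. The regions between Olfr1256 and Olfr48 and between Olfr1042 and Olfr1043 had Stringent region scores of 19.7 and 19.2.

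The regions with a same-strand promoter behind lay between 53 pairs of promoters, whose median gap was 9921 bp (4860 to 17750). In 22 of the 74 regions the distances to the promoters on either side differed by less than 500 bp. The promoter behind had a Stringent region within 100 bp in 41 of the 53 pairs, and the nearest promoter had one in 34, against 61.7% of all named promoters. A region of at least 500 bp was present among the regions nearest to and downstream of 63.9% of all 1085 promoters. Of the 27 promoters that had a long upstream region of the next promoter in front of them, 2 (7.41%, 0.910 to 24.3) also had such a long region of their own, Olfr71 and Olfr1348. Of the 26 promoters behind that had only regions under 500 bp in front of them, 15 had one (57.7%, 36.9 to 76.6). Of the 53 nearest promoters, 34 had one (64.2%, 49.8 to 76.9). A region past the midpoint between 2 promoters cannot be nearest to the one behind, so part of this pattern follows from assigning regions to the nearest promoter. How much was not tested.

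The long regions with a same-strand promoter behind lay a median of 5737.5 bp from that promoter (quartiles 4102.75 and 6598.75 bp, n = 27). Downstream regions of that length lay a median of 3242 bp from theirs (quartiles 2210.25 and 4770.25 bp, n = 751). The rule confines the first distance from both sides, since the promoter behind is always the farther one and lies within 10000 bp, so nothing is read from these 2 medians.

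No region with an opposite-strand promoter behind scored above 12.4, and the part of probe spacing in this was not tested. The highest of the 17 was a region of 332 bp between Olfr965 and Olfr149 (chr9:39518870-39519202), 1919 bp upstream of Olfr965 and 8113 bp upstream of Olfr149. It scored 12.4 on Stringent, with 0.318 and -0.162 on High Coverage 1 and 2. It was thus a peak on the nested product and below the calling threshold on both others. The region between Olfr969 and Olfr968 (chr9:39590563-39590858) scored 10.2 on Stringent, with 2.18 and 9.60 on High Coverage 1 and 2. Olfr1501, with Olfr1502 behind it on the opposite strand, had 4 of the 17 regions, with region scores of 5.68, 4.45, 8.25 and 8.13. The 2 that scored above 8 adjoin each other and were the only members of the class overlapped on both High Coverage arrays.

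Among the regions with no named promoter behind within 10000 bp, the highest score was at Olfr5 (chr7:6441149-6441637), 1672 bp upstream of its position. It scored 18.4 on Stringent, with 25.1 and 20.9 on High Coverage 1 and 2, so it stood out on all 3 arrays. Its promoter behind, that of Olfr-pseudo_unannotated_25, was on the same strand at 11158 bp, just past the limit. An adjoining region nearer to Olfr5 (chr7:6440885-6441148) was lower on Stringent, at 6.85, than on High Coverage 1, at 13.4, and High Coverage 2, at 24.2. The second highest was a region of 661 bp at Olfr483 (chr7:115238563-115239224), with 18.0 on Stringent, with 9.98 and 13.6 on High Coverage 1 and 2. Olfr553, a class I receptor, had 4 upstream regions. That of 663 bp (chr7:109763017-109763680) scored 16.9 on Stringent, with 0.898 and 5.30 on High Coverage 1 and 2. That at 1153 bp (chr7:109766555-109766879) scored 16.4 on Stringent, with 0.183 and -0.749 on High Coverage 1 and 2. Both were thus strong on the nested product, and the nearer one stayed below the calling threshold without nesting. The longest upstream region of all, 1064 bp at Olfr1417, had a region score of 7.08 and was not overlapped on either High Coverage array.

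**Figure D4:**
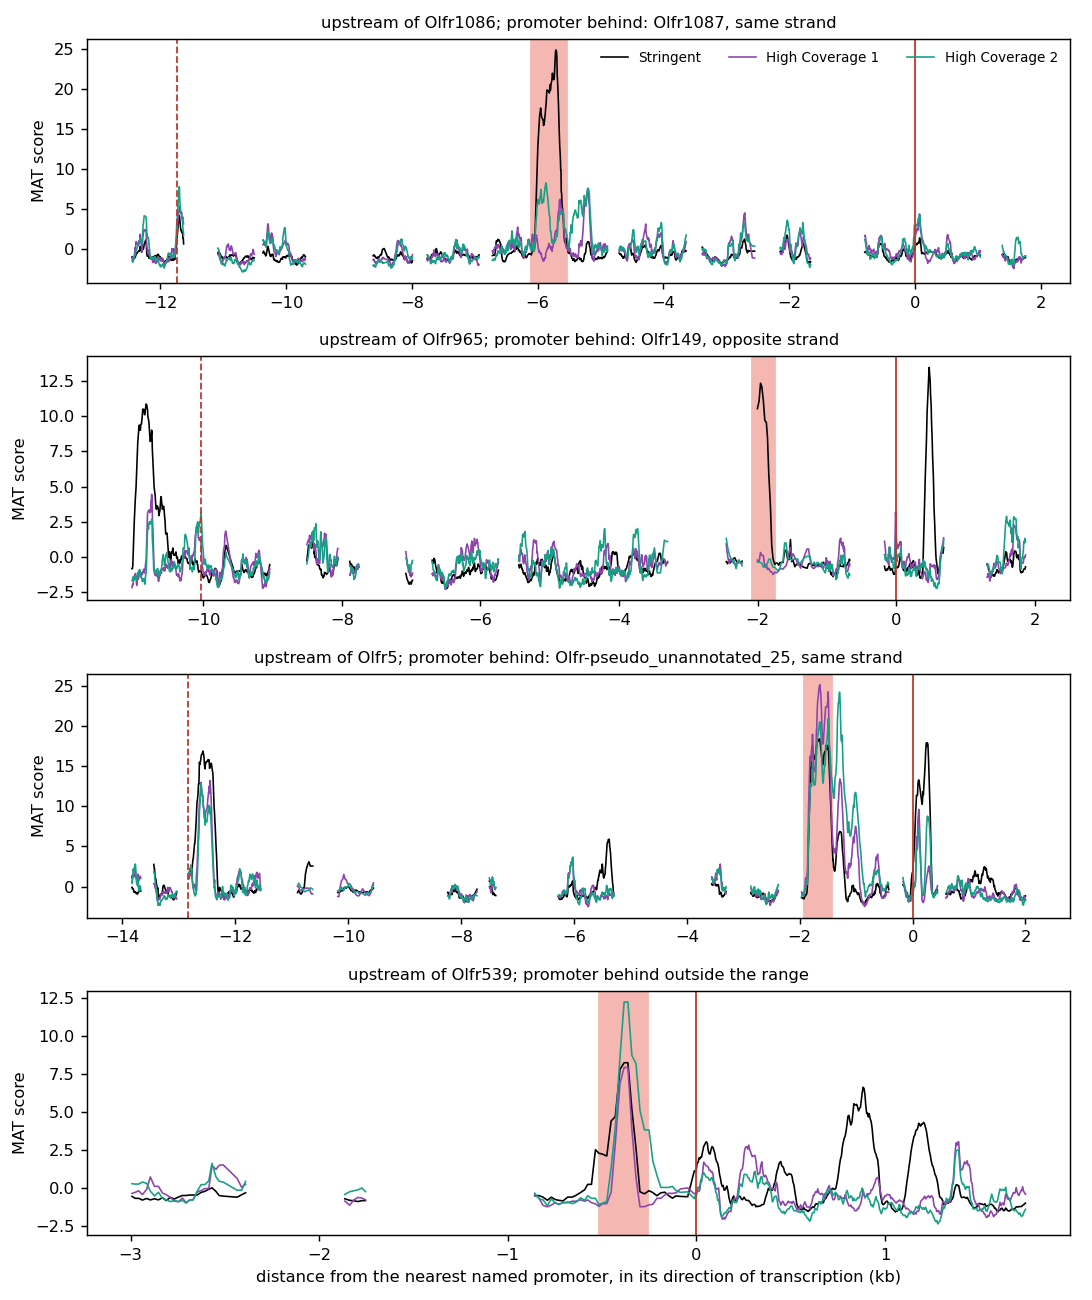
MAT score of each array by distance from the nearest named promoter (kb, in the direction of transcription), gaps being untiled or unscored stretches. Solid lines mark the nearest promoter, dashed lines the promoter behind, and shading the upstream region. The Olfr1086 region peaks at 24.9 on Stringent near the middle between 2 promoters, the Olfr965 region at 12.4 on Stringent alone, and the Olfr5 and Olfr539 regions peak on all 3 arrays.

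Olfr397 had the most upstream regions of any promoter, 8, with region scores from 2.71 to 9. They formed a group of 5 between 6696 and 7534.5 bp and a group of 3 between 3777.5 and 4204.5 bp upstream. The highest MAT scores in the far group were between -0.227 and 0.468 on High Coverage 1 and between -0.320 and 0.798 on High Coverage 2, and no High Coverage region overlapped it. All 3 regions of the near group were overlapped on both, and the highest of them had 7.70 on Stringent, with 10.7 and 8.24 on High Coverage 1 and 2. Olfr22-ps1, a pseudogene without a named promoter, stands between Olfr397 and the gene behind in the reference order.

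Receptor genes without a named promoter were examined in the gene order of the mouse reference (GRCm38.p6), from which names and order but no coordinates were taken. Both flanking genes were matched for 207 of the 248 regions, and 73 of these had at least 1 receptor gene without a named promoter between them. Of the 57 matched regions with a same-strand promoter behind within 10000 bp, 1 had such a gene, as had 1 of the 17 with an opposite-strand promoter. Where no named promoter stood behind within the limit it was 71 of 133, or 53.4% (44.5 to 62.1), against 34.6% of the scored probes in the same zone. The Stringent density there was 0.902 regions per 1000 probes with such a gene between and 0.417 without, a ratio of 2.17 (1.52 to 3.10). The same ratio was 1.27 (1.07 to 1.51) on High Coverage 1 and 1.52 (1.27 to 1.81) on High Coverage 2. The median gap between the flanking promoters was 29209 bp with such a gene and 28728 bp without. The mix of distances differed, with 30 of 71 regions at 7000 to 10000 bp with such a gene and 18 of 62 without. These ratios were not weighted by distance. Several of the 71 regions shared a promoter and the gene between, with 8 at Olfr397, 4 at Olfr136 and 3 at Olfr466. The intervals count each region separately, and neither this sharing nor probe spacing was allowed for. A gene with a recorded strand equal to that of the nearest promoter stood between for 7 of the 133 (5.26%). Genes with no recorded strand were counted as not equal. The genes between were 60 in number, 47 of them annotated as pseudogenes, 2 as transcribed pseudogenes and 11 as protein coding. At Olfr483 the gene between was Olfr482, and at Olfr954, whose region at chr9:39264114-39264559 scored 16.6 on Stringent, it was the pseudogene Olfr953-ps1. A protein-coding gene stood between for 13 of the 73 regions only.

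The strand of the promoter could be set against that of the gene in RefSeq for 874 promoters, and 863 had the same strand. Of the 197 upstream regions whose nearest gene had a strand there, 3 lay at a promoter on the opposite strand to its gene. These were 1 region at Olfr123 and 2 at Olfr589, and by the strand of the gene they would count as downstream. The Olfr123 region (chr17:37925437-37925663), at 1049 bp, scored 8.46 on Stringent, with 12.5 and 14.4 on High Coverage 1 and 2.

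The High Coverage arrays were not used to choose the regions. A High Coverage 1 region overlapped 102 of the 248 upstream regions by at least 1 bp, or 41.1% (34.9 to 47.5), against 50.8% of all Stringent regions. A High Coverage 2 region overlapped 116, or 46.8% (40.4 to 53.2), against 55.4%. At least 1 of the arrays overlapped 51.6% (45.2 to 58.0), against 63.8% of all Stringent regions, and both overlapped 36.3% (30.3 to 42.6), against 42.4%. The intervals of the first 3 shares lay below the share of all Stringent regions, and that of the last one included it.

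The overlap was highest in the class with a same-strand promoter behind, whose intervals did not meet those of the class with none within the limit. In the first, 59.5% (47.4 to 70.7) were overlapped on High Coverage 1 and 66.2% (54.3 to 76.8) on High Coverage 2, near the downstream regions at 54.8% and 58.1%. With an opposite-strand promoter behind the counts were 2 and 4 of 17, or 11.8% (1.46 to 36.4) and 23.5% (6.81 to 49.9). With none behind within the limit the shares were 35.7% (28.2 to 43.7) and 40.1% (32.4 to 48.2). Overlap moved with length. Of upstream regions of at least 500 bp, 34 of 39 (87.2%) were overlapped on at least 1 array, against 90.5% of all Stringent regions of that length. Of the shorter ones, 94 of 209 (45.0%, 38.1 to 52.0) were overlapped, against 54.4% of all shorter Stringent regions. Among regions under 500 bp, 57.4% (42.2 to 71.7) were overlapped with a same-strand promoter behind and 41.4% (33.7 to 49.4) without, and these intervals overlap. Where no promoter stood behind within the limit, 40 of 71 regions with an unnamed receptor gene between were overlapped on at least 1 array, or 56.3% (44.0 to 68.1), and 22 of 62 without one, or 35.5% (23.7 to 48.7).

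**Figure D5:**
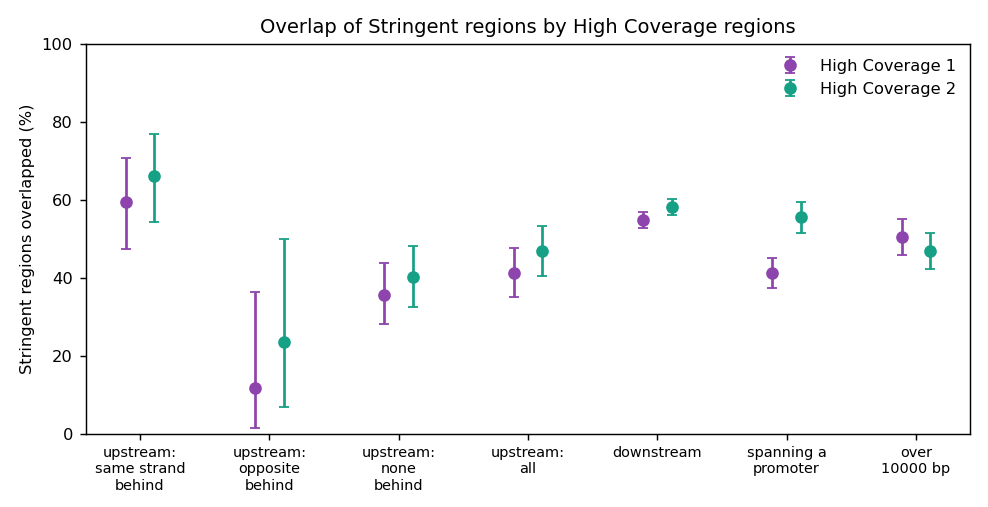
Share (%) of Stringent regions overlapped by at least 1 bp by a region of each High Coverage array, for the upstream regions by the promoter behind and for the other Stringent regions. Bars are exact 95% binomial intervals. Upstream regions with a same-strand promoter behind stand at 59.5% and 66.2%, and those with none behind within 10000 bp at 35.7% and 40.1%.

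The probe scores gave the same order as the called regions. They are no separate support, since the High Coverage regions were called from these scores. A maximum can also be higher where a region holds more probes, and the regions with a same-strand promoter behind were longer by median. The highest score inside a region was ranked among the scored probes of its array and given as a percentile. With a same-strand promoter behind, the median percentile was 96.6 on High Coverage 1 and 96.9 on High Coverage 2. With an opposite-strand promoter it was at 83.6 and 85.2, and with none within the limit at 90.4 and 91.7. All 245 upstream regions with a scored probe inside had medians of 92.5 and 93.7, against 95.02 and 95.2 for all Stringent regions.

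The highest Stringent score lay in the 3′ part of the region, past its middle in the promoter's direction of transcription, in 46.5% of upstream regions (40.2 to 53.0) and in 47.5% of downstream regions. That is the part towards the promoter in an upstream region and away from it in a downstream one. A peak at the exact middle was not counted, and the median place was 0.5 of the length in both groups. The number of such peaks is not given, so these shares cannot tell whether the peaks leaned to the 5′ part. The share was 58.3% in the spanning regions, whose promoter lies inside them.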

How the data were processed

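RLM-RACE products of 3 samples were hybridised to tiling arrays, 1 Stringent and 2 High Coverage, per the labels. The authors made a MAT score per probe and called regions on each array alone, without a control array, at MAT scores of 2.52, 2.53 and 2.99 (false discovery rate 0 percent, bandwidth 50, maximum gap 30, 5 or more probes), per the file headers. A deposited score is relative to its own array. The deposited promoter table gives 1 position (TSS) and strand per row. The sources used here do not say how those positions were set. Per the submitters' processing notes the genome build is mm9, and coordinates are printed as the files give them. Region scores are the authors' own and were used only within a list.

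Probes with a score of exactly 0 on all arrays were read as unscored, which left 2188086 of 2313448 (94.6%). Depth on an array is not counted. Each scored probe was placed by the same distances and strands as the regions. Probes inside regions that span a named position were kept, although such regions do not count as upstream or downstream. Density is the number of regions per 1000 scored probes, not per bp. Shares have exact Clopper-Pearson intervals, and ratios of densities have exact conditional binomial intervals, both at 95%. With 1 array against 2, and regions that share promoters and sequence, no p-value was computed. RefSeq tables (GRCm38.p6) matched 1030 of 1085 promoter names and served for gene names, order, type and strand only.

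The members, classes and lists were chosen with earlier results of these data known. Regions were named by rule: the 10 highest Stringent scores, the 10 highest by their lower High Coverage percentile among those overlapped on both, the 5 highest scores of each class, promoters with 3 or more regions, the 5 longest, and those nearest the limits. Not all of them are printed. The regions under 1000 bp, those at promoters on the other strand than their gene, Olfr71 and the length of 500 bp were chosen after values were seen. No cell type markers were used, since the arrays tile receptor loci. No sequence is printed, since no genome of this build was used here. The steps were tested on simulated data, where 600 of 600 planted regions came back with their class and distances. Alternatives were other limits, thresholds and overlaps, and leaving out either High Coverage array. Tables and intervals were made with pandas 2.3.3, scipy 1.17.1 and numpy 2.4.6 under Python 3.11.15, and figures with matplotlib 3.10.9.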

Additional observations from a re-analysis of the deposited data

How the results depend on the processing

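Both density ratios stayed above 1 under the alternatives run for them. The 248 upstream regions became 149 with an upper limit of 5000 bp and 65 above the median region score. The share with a same-strand promoter behind, 29.8%, was 7.66% with that promoter within 5000 bp, 48.4% within 20000 bp, 52.3% above the median score and 23.8% without unannotated pseudogenes. The probe share of 23.6% applies to the main setting and above the median score. None is given for the other limits or without these pseudogenes, so those shares cannot be set against it. The density ratio with over without a same-strand promoter behind, 1.38, was 4.34 for probes inside regions, 1.82 at 5000 bp, 1.13 at 20000 bp and 3.55 above the median score, and downstream over upstream, 3.31, was 7.85 and 7.09 for probes inside regions and above the median score. The overlap on at least 1 High Coverage array, 51.6%, was 35.5% for an overlap of 50% of both regions, 44.4% with as many of the highest-scoring High Coverage regions as Stringent has, 72.3% above the median score, and 41.1% to 46.8% with either High Coverage array left out. The median High Coverage percentile, 92.1, was 79.7 for mean scores and 92.5 to 93.7 with either array left out. The median length, 202.5 bp, was 510 bp above the median score, and the 73 regions with an unnamed receptor gene between became 13 with protein-coding genes alone. The cause was not tested in each case where a value moved.

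Alternatives chosen after seeing the data were 1 region per block, which gave 30.6% with a same-strand promoter behind and 55.3% overlapped, weighting over bins of distance, which gave a density ratio of 1.20, and minimum lengths of 400 and 300 bp for a long region. At these, 2 of 28 and 7 of 30 promoters behind a long upstream region had one of their own, against 2 of 27 at 500 bp. No paired analysis was possible because the Stringent group has 1 array and no result comes from a test between groups. Signal over background limits the weakest regions, which lie close to the calling threshold.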
